A study of Rattus norvegicus with 12 samples.

Results

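The genes described here build the fibrous extracellular matrix: the collagen chains, the lysyl oxidases that crosslink them, the elastic fibre and adhesive glycoproteins around them, the proteins that fold and trim procollagen, and the TGF-beta ligands. They were chosen by name, as every gene whose symbol has the form of a collagen chain plus 24 listed symbols. This gave 66 genes of the 16002 gene IDs kept, of which 43 were collagen chain genes and 23 were others. The listed symbol Leprel1 matched no row.

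RNA was sequenced in bulk from H9C2 cells, an established line of rat cardiomyoblasts derived from embryonic heart, in 3 groups of 4 libraries. Control cells were wild type, grew under normal oxygen and carried no lentivirus. Cells of the H/R group, also labelled wild type, carried an empty lentiviral vector and spent 8 h at 1% oxygen and then 2 h back under normal oxygen. Cells of the LITAF group, labelled as LITAF overexpression, carried a vector for LITAF, an endosomal and lysosomal membrane protein, and went through the same hypoxia and reoxygenation. The control therefore differs from the H/R group in both the vector and the oxygen, and in comparisons with control these cannot be told apart. The line is a single cell line in culture, and the labels do not give the promoter of the vector. They call the replicates biological but do not say that each came from its own culture. The p-values therefore reflect the variation among the libraries at hand, which may not be that between separate cultures.

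Fibrillar collagen is made as procollagen in the endoplasmic reticulum, where prolines and lysines are hydroxylated and chaperones such as HSP47 (Serpinh1) hold the triple helix together. After secretion the ends are cut off, the molecules line up into fibrils, and lysyl oxidases join them. In the heart most of this matrix comes from fibroblasts, TGF-beta is its best known inducer, and the enzymes that hydroxylate collagen are known targets of hypoxia.

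Levels are TMM-scaled counts per M reads (CPM), and a group's level is the mean ± SD of its 4 libraries. CPM is not divided by gene length, so a level is compared between groups and not between genes. Fold changes are log2 ± SE from edgeR's quasi-likelihood test, with p-values adjusted by Benjamini-Hochberg over all 11398 genes tested. A gene rose or fell where its adjusted p was under 0.05. Control, H/R and LITAF libraries held 19.2 to 20.7 M, 16.9 to 18.1 M and 17.2 to 18.4 M counts. Litaf itself stood at 473 ± 17.9 CPM in control, 585 ± 30.0 CPM in H/R and 2338 ± 326 CPM in LITAF libraries. Libraries differed within groups in ways that touch these genes: control library 2 was low in the type VI collagen chains, library 4 was low in Postn in both the control and the H/R group, and LITAF library 1 had the lowest Col1a1 of its group.

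Before the members' values, promoter sequence is shown for genes that rose, that fell or that did not pass in these data. The sequences are from RefSeq, build GRCr8, and cover the 250 bases before the annotated start, 5′ to 3′ on the gene's strand. Of the 47 members tested, 37 had an entry in that table. Serpinh1 rose in the H/R group. Its window, chr1:163062977-163063226 on the minus strand, held a match to the heat shock element, searched on both strands as 3 alternating units of TTC and its reverse GAA with 2 bases between (in capitals), at bases -35 to -23 from the start.

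Serpinh1: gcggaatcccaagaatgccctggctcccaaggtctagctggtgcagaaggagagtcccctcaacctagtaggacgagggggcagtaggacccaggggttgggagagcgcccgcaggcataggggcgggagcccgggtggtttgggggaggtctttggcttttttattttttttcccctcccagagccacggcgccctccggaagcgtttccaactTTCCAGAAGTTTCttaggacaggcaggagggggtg

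That element was in 1 of the 37 members' windows and in 0.597% of the 27457 windows of all genes. P4ha2, a prolyl 4-hydroxylase subunit that is not a member, also rose. Its window, chr10:38743644-38743893 on the plus strand, held 5 matches to the core of the hypoxia response element (ACGTG or GCGTG on either strand, in capitals).

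P4ha2: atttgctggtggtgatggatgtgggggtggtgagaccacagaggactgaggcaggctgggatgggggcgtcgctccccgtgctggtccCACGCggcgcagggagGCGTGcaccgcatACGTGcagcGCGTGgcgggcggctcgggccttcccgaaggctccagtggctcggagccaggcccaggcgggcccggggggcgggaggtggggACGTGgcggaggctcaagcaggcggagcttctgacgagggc

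The window of P4ha1, another subunit of this enzyme, which rose by 1.86 in log2, held 2 matches, both GCGTG, and is not printed. How often windows of all genes hold several matches was not counted. Among the members, ACGTG was in 2 of the 37 windows (5.41%), against 16.9% of all genes' windows, and GCGTG in 15 (40.5%), against 27.2%. Col1a2 and Thbs1 both fell in the H/R group. Their windows, chr4:33518307-33518556 and chr3:125510000-125510249, both on the plus strand, each held a CCAAT box on the opposite strand (read here as ATTGG, in capitals).

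Col1a2: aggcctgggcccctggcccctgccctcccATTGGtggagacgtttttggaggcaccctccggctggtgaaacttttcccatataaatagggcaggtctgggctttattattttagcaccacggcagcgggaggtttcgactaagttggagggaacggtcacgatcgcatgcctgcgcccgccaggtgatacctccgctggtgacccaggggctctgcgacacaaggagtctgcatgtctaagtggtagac

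Thbs1: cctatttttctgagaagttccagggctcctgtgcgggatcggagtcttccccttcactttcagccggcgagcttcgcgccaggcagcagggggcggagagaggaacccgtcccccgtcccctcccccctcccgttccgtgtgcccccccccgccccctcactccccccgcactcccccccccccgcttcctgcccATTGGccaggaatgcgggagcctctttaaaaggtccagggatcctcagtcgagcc

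CCAAT or its reverse was in 9 of the 37 members' windows (24.3%), against 34.3% of all genes' windows. The 9 were Col10a1, Col11a1, Col1a2, Col4a1, Col4a2, Col5a3, Loxl4, P3h1 and Thbs1. Of these P3h1 rose in H/R, Col4a1, Col4a2 and Col5a3 did not pass, and the others fell. The windows of Col5a1 and Col6a1, which also fell in H/R, held no match and are not printed. Col4a1 and Col4a2 are basement membrane chains that did not pass in any comparison in the filtered TMM fit of all 12 libraries. They are read in opposite directions from neighbouring starts. The 76 bases between the starts, chr16:84885521-84885596, shown on the plus strand, were 78.9% G or C. They held no CCAAT in either direction, but the 250-base windows of both genes, which reach further, were among the 9 that did.

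Col4a2 to Col4a1: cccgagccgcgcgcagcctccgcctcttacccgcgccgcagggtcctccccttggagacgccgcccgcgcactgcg

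A match of letters in these windows is a description and not a measured binding site.

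In the H/R group most expressed fibrous matrix genes were lower than in control, while 3 of the 4 folding and processing members were higher. Of 47 members tested, 26 fell (55.3%), when 31.8% of all genes tested fell, and 7 rose (14.9%), when 31.8% of all genes rose. In either direction this was 33 members, against 63.6% of all genes, and the other 14 did not pass. Some of these calls were of genes under the level of the low-count filter, about 0.550 CPM, in control or in H/R. In control these were Col7a1, Col14a1 and Col19a1, which rose. In H/R they were Col6a3 and Col24a1, which fell. All were tested through the groups where they were higher, so their calls are a description only. The median log2 fold change was -0.99 over the tested members and 0.01 over all genes tested. Groups did not overlap for 29 members (61.7%), against 58.6% of all genes. The 26 falls were the same in number with library totals or upper quartile scaling in place of TMM, which moved the median of all genes to 0.13 and 0.12. With those scalings, rises made up 59.0% and 58.1% of all genes called, against 49.9% with TMM. The deposited counts of the control libraries held fewer decimal values (2.85 to 3.4%) than those of the other libraries (11.4 to 12.6%), so whether all columns were made alike is unknown, and in comparisons with control this cannot be told apart from the groups. Among the members Loxl3, Thbs1 and Tgfb3 had whole counts in all 4 control libraries and decimals in all H/R and LITAF libraries, and Col8a1 and P3h1 had decimals in 1 and 2 LITAF libraries. In bulk RNA, fewer cells that make a transcript and less of it per cell cannot be told apart.

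The LITAF group differed from the H/R group in fewer members. Of the 47 tested, 8 rose (17%), when 3.73% of all genes rose, and 0 fell, when 1.15% of all genes fell. In either direction 4.88% of all genes were called, and the other 39 members did not pass. Among the 8, Col6a3 and Thbs2 were under the level of the low-count filter in H/R. They were tested through the groups where they were higher, so their calls are a description only. Groups did not overlap for 17 members (36.2%), against 18.9% of all genes. The median log2 fold change was 0.24 over the tested members and -0.01 over all genes, and 42 members had a positive fold change, against 48.2% of all genes. With library totals in place of TMM, 38 members had a positive fold change and 7 rose. That scaling also changed the direction of calls over all genes, where rises made up 61.0% of calls against 76.4% with TMM, and 66.5% with upper quartile scaling. The count rested on the libraries used, and so did the count of all genes called, which was 556 with all libraries. Leaving out H/R library 1, 2, 3 or 4 gave 4, 4, 2 and 5 members, with 272, 279, 244 and 365 of all genes. Leaving out LITAF library 2, 3 or 4 gave 6, 5 and 3 members, with 407, 322 and 244 of all genes. Without LITAF library 1 the counts were 11 members and 1285 genes. A fit of the H/R and LITAF libraries alone called 1098 of all genes, of which 776 rose. In that fit 15 members rose: the 8 and, beside them, Col1a1, Col1a2, Col5a1, Col6a2, Col8a2, Col16a1 and Fbln5.

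Against control, LITAF cells showed 25 members lower and 9 higher of 47, when 32.6% of all genes fell and 32.0% rose (64.6% in either direction). Groups did not overlap for 26 members (55.3%), against 52.1% of all genes. With library totals 25 fell and 15 rose, and with upper quartile scaling 24 fell and 15 rose. These scalings also moved all genes toward rises. With TMM 3649 of all genes rose and 3717 fell. With library totals 4059 rose and 3295 fell, and with upper quartile scaling 4193 rose and 3236 fell. The median of all genes went from -0.01 to 0.07 and 0.09. The rises added by library totals were Col5a2, Col6a3, Col19a1, Fbln5, Sparc and Thbs2, at log2 fold changes of 0.22 to 1.01. The 3 comparisons share libraries, so their values are given side by side and not set against each other.

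**Figure D1:**
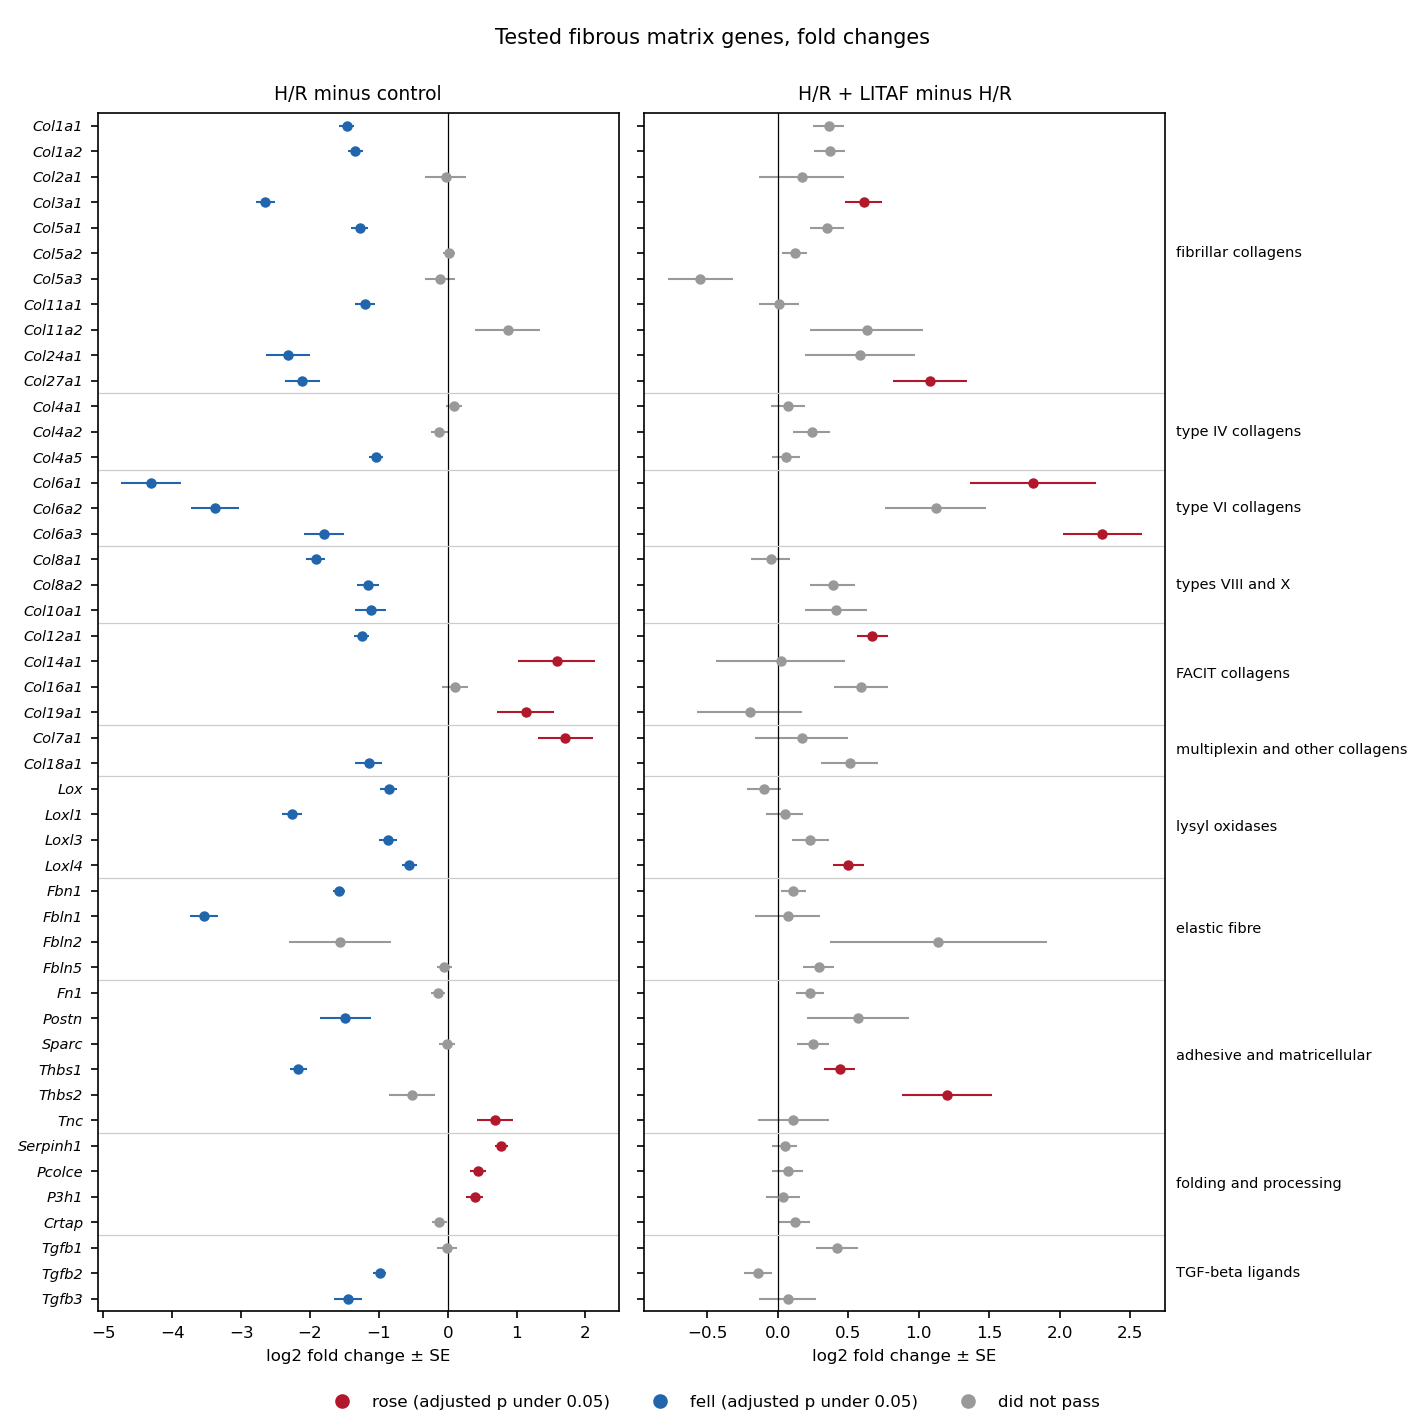
Log2 fold change ± SE of each of the 47 tested members, on the x axis, in the H/R group against control (left) and in the LITAF group against the H/R group (right), grouped by role. Red points rose and blue points fell at an adjusted p under 0.05; on the left 26 points are blue and 7 red, and on the right 8 are red and none is blue.

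The fibrous matrix genes took up a large part of the sequenced RNA. All 66 together held 8.92 to 10.4% of a control library's counts, 4.74 to 5.09% with H/R and 5.27 to 6.30% with LITAF. Col1a1 and Col1a2, the chains of type I collagen, held 5.10 to 6.62%, 2.33 to 2.62% and 2.66 to 3.4% of counts in the same order. The 3 groups did not overlap in either share. Col1a1 was the gene with the most counts in 10 of the 12 libraries.

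**Figure D2:**
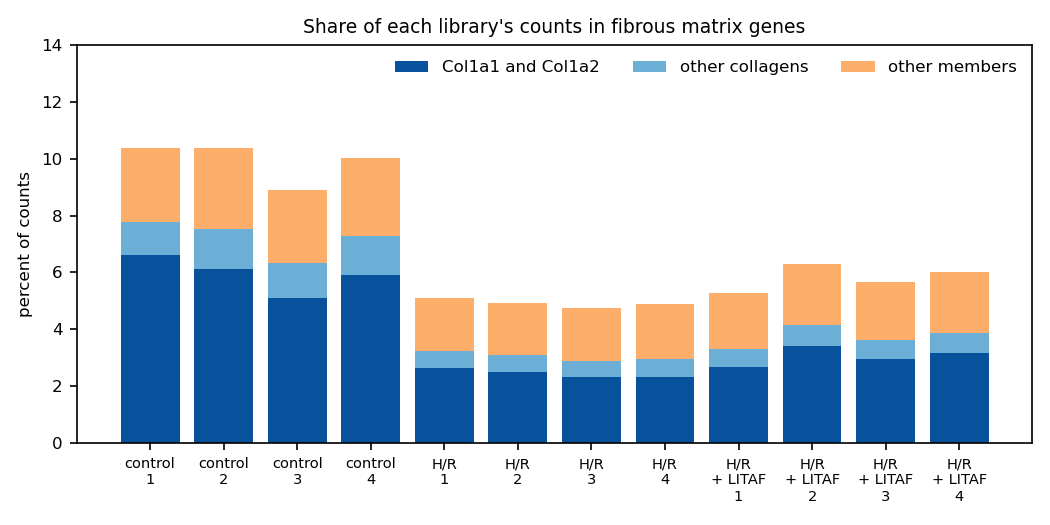
Percent of each library's counts held by Col1a1 and Col1a2, by the other collagen genes and by the other members, stacked, for the 12 libraries. The control bars reach 8.92 to 10.4%, the H/R bars 4.74 to 5.09% and the LITAF bars 5.27 to 6.30%.

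Among the fibrillar collagens, which form the load-bearing fibres, 7 of 11 tested chains (63.6%) fell in the H/R group and none rose. Of all genes 31.8% went each way. In the LITAF group against H/R 2 chains rose (18.2%), when 3.73% of all genes rose. Col1a1 stood at 38680, 37060, 28590 and 34790 CPM in control libraries 1 to 4, at 13520, 12700, 11910 and 12150 CPM in the H/R libraries and at 13990, 18110, 15440 and 16990 CPM in the LITAF libraries. The 3 groups did not overlap, with control the highest and H/R the lowest. Col1a1 fell by 1.47 ± 0.11 on the log2 scale in H/R against control (2.77-fold, edgeR adjusted p 9.97e-09). Its LITAF value against H/R was 0.36 ± 0.11, which did not pass (edgeR adjusted p 0.0696).

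Col1a2, the partner chain of type I collagen, stood at 31290, 28210, 24180 and 26540 CPM in control, 11700, 11330, 10530 and 10040 CPM in H/R and 12030, 15880, 13640 and 14880 CPM in LITAF libraries. It followed the order of Col1a1, again without overlap. It fell by 1.34 ± 0.11 in H/R (2.53-fold), and its LITAF value against H/R was 0.37 ± 0.11 (edgeR adjusted p 0.0555). LITAF library 1 was the lowest of its group for both chains. Without it, the values were 0.44 ± 0.11 for Col1a1 and 0.46 ± 0.10 for Col1a2, with edgeR adjusted p of 0.0171 and 0.0115. In the fit of the H/R and LITAF libraries alone both also passed, with edgeR adjusted p of 0.0359 and 0.0382, and with DESeq2 they passed with adjusted p of 0.0289 and 0.0186. Neither passed with the replicate number as a block (edgeR adjusted p 0.0562 for both) or with library totals (0.0956 and 0.0797). Nor did either pass with any other H/R or LITAF library left out, with upper quartile scaling or without the low-count filter.

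Col3a1, which makes the thinner type III fibrils found with type I, stood at 5912, 9536, 7279 and 8243 CPM in control, 1323, 1298, 1165 and 1161 CPM in H/R and 1629, 2079, 1806 and 2026 CPM in LITAF libraries. No H/R library reached any library of another group. Col3a1 fell by 2.65 ± 0.14 in H/R (6.26-fold, edgeR adjusted p 1.16e-10) and rose by 0.61 ± 0.13 in LITAF against H/R (1.52-fold, edgeR adjusted p 0.0125). It remained 4.11-fold below control in the LITAF group. The LITAF call was lost without H/R library 3 (0.58, edgeR adjusted p 0.0571) and without LITAF library 4 (0.57, edgeR adjusted p 0.0525), and held in the other 6 fits with a library left out.

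Type V collagen starts fibrils and limits their width, and of its 3 chains 1 fell in H/R, when 31.8% of all genes fell. Col5a1 stood at 1002, 1309, 987 and 955 CPM in control, 480, 440, 392 and 438 CPM in H/R and 489, 618, 537 and 581 CPM in LITAF libraries. All control libraries were above all others, and control library 2 was the highest. Col5a1 fell by 1.28 ± 0.12 in H/R (2.43-fold), and its LITAF value against H/R was 0.35 ± 0.12 (edgeR adjusted p 0.0975).

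Col5a2 stood at 1911, 1667, 1597 and 2058 CPM in control, 1883, 1839, 1776 and 1843 CPM in H/R and 1925, 2063, 1930 and 2065 CPM in LITAF libraries. The H/R libraries lay inside the control range. Its log2 fold change was 0.02 ± 0.09 in H/R against control and 0.12 ± 0.09 in LITAF against H/R, and neither passed. Col5a3 was at 24.7 ± 10.0, 23.0 ± 5.27 and 15.7 ± 2.00 CPM and fell in LITAF against control (-0.65 ± 0.23, edgeR adjusted p 0.0183), with groups that overlapped. That fall was lost without LITAF library 4 (-0.59) and without control library 4 (-0.35, edgeR adjusted p 0.103).

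Col11a1, which builds into the same thin fibrils as type V, stood at 612, 522, 561 and 383 CPM in control, 226, 217, 219 and 242 CPM in H/R and 274, 191, 227 and 216 CPM in LITAF libraries. Control was above both other groups, which overlapped each other. Col11a1 fell by 1.2 ± 0.14 in H/R (2.30-fold) and stood at 0.01 ± 0.14 in LITAF against H/R. The minor fibrillar chains Col24a1 and Col27a1 also fell in H/R, by 2.32 ± 0.32 and 2.11 ± 0.26. Col27a1, at 19.1 ± 7.73 CPM in control and 4.44 ± 1.08 CPM in H/R, rose to 9.40 ± 1.85 CPM with LITAF (1.08 ± 0.26, edgeR adjusted p 0.0245), and lost this call without H/R library 1, 2 or 3 or LITAF library 4 (values of 1.0 to 1.13). Col2a1, the cartilage collagen, had group means of 1.93, 1.89 and 2.13 CPM and did not pass in any comparison. Col11a2, with group means of 0.310, 0.569 and 0.879 CPM, rose in LITAF against control by 1.5 ± 0.44, with groups that overlapped.

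**Figure D3:**
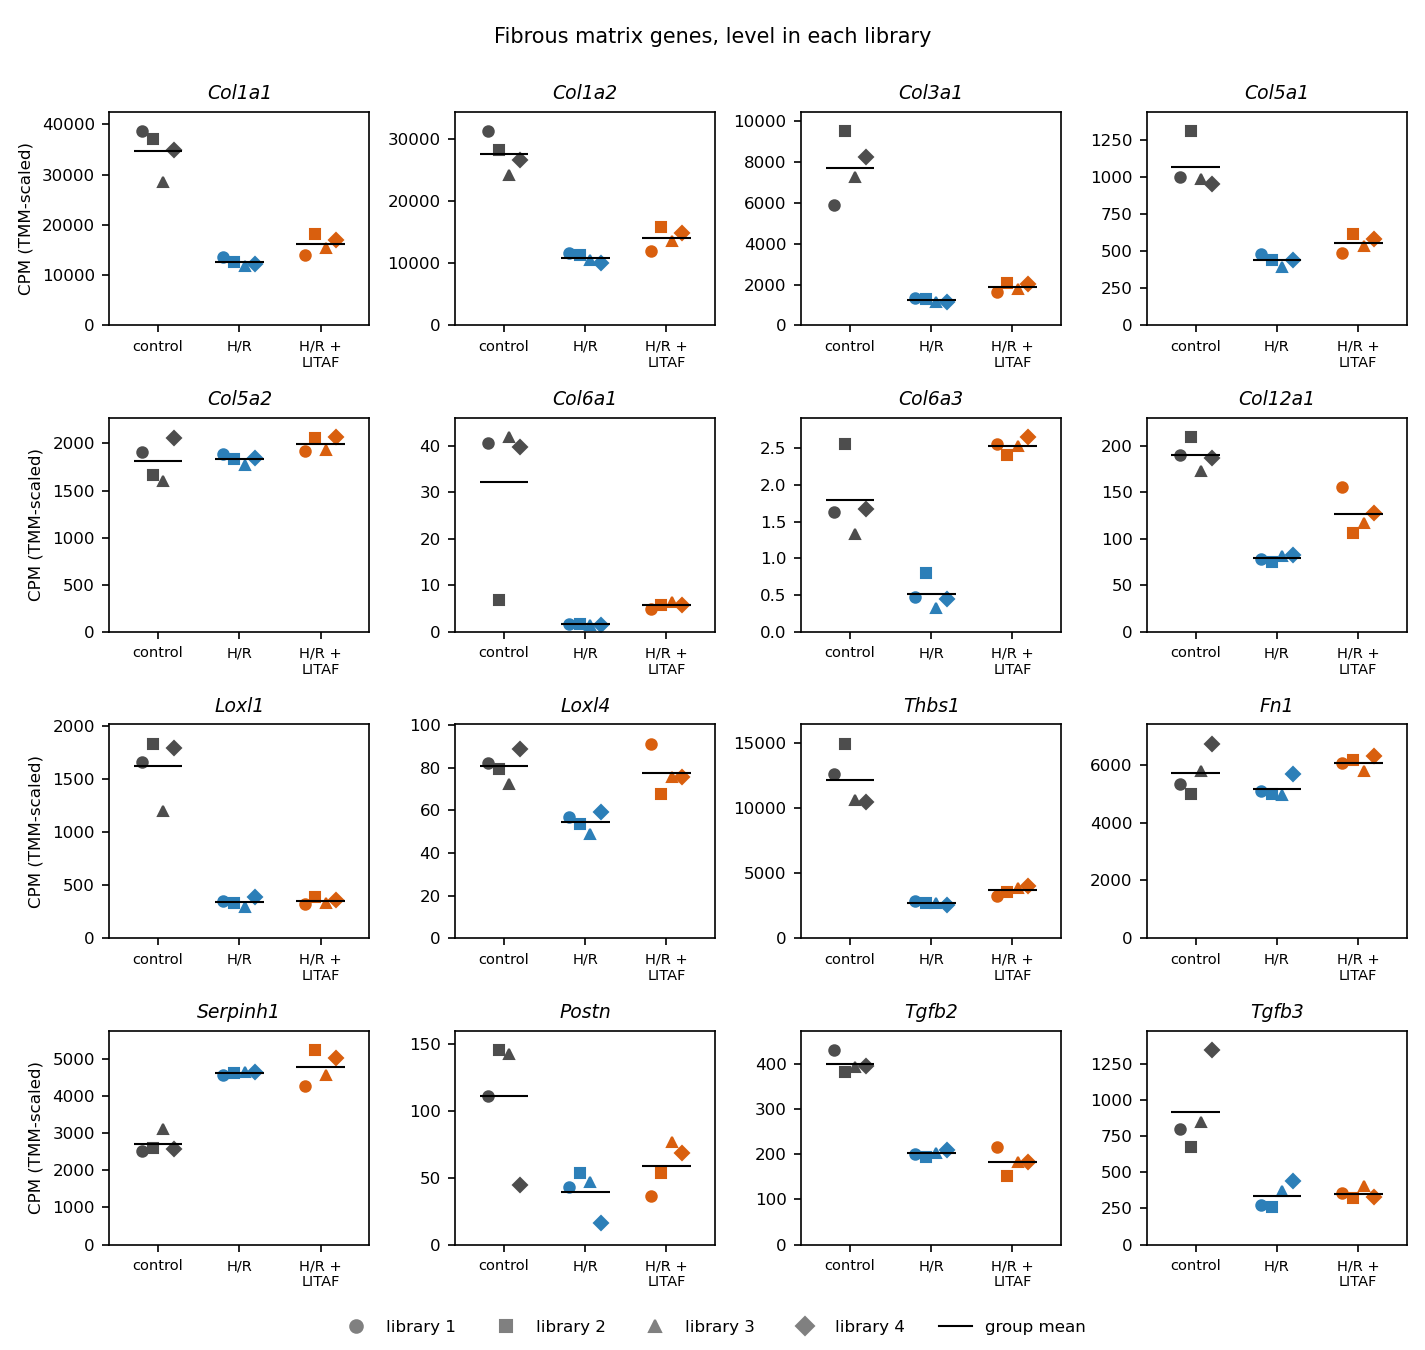
Level of 16 members in each library, in CPM after TMM scaling on the y axis from 0, for control (grey), H/R (blue) and LITAF (orange) groups, with a marker shape per library number and a line at the group mean. Col1a1, Col1a2, Col3a1, Loxl1 and Thbs1 drop from control to H/R, Serpinh1 goes up from 2702 to 4624 CPM, and Col5a2 and Fn1 overlap between control and H/R.

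Type IV collagen is the sheet-like network of basement membranes. Of its 6 chain genes 3 were tested, and 1 fell in H/R (33.3%, near the 31.8% of all genes that fell). Col4a1 was at 848 ± 143, 905 ± 61.8 and 952 ± 69.8 CPM in control, H/R and LITAF groups, and Col4a2 at 628 ± 138, 577 ± 48.5 and 681 ± 58.3 CPM. The groups overlapped for both, and the log2 fold changes in H/R were 0.09 ± 0.12 and -0.12 ± 0.13. Neither passed in any comparison in the filtered TMM fit of all 12 libraries. Col4a5, an X-linked chain of other basement membranes, stood at 298, 377, 291 and 357 CPM in control, 161, 161, 152 and 168 CPM in H/R and 178, 154, 171 and 166 CPM in LITAF libraries. Control lay above both other groups, and Col4a5 fell by 1.04 ± 0.10 in H/R (2.06-fold) with 0.06 ± 0.10 in LITAF against H/R.

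Type VI collagen makes beaded filaments around muscle and connective tissue cells. All 3 tested chains fell in H/R, when 31.8% of all genes fell. Col6a1 stood at 40.7, 6.78, 41.8 and 39.8 CPM in control, 1.76, 1.71, 1.49 and 1.51 CPM in H/R and 4.83, 5.84, 6.40 and 5.76 CPM in LITAF libraries. Control library 2, with 122 counts against 737 to 813 in the others, was close to the LITAF libraries. Col6a1 fell by 4.31 ± 0.43 in H/R (19.9-fold, edgeR adjusted p 2.84e-07). Without control library 2 it fell by 4.65 ± 0.13. It rose by 1.81 ± 0.45 in LITAF against H/R (3.52-fold, edgeR adjusted p 0.0283), on 27 to 33 counts in H/R and 85 to 119 in LITAF libraries. This call was lost in all 8 fits with an H/R or LITAF library left out (1.75 to 1.91, edgeR adjusted p 0.0545 to 0.116) and without the low-count filter (1.82, edgeR adjusted p 0.12). In the fit of these libraries alone the value was 1.82 ± 0.15 (edgeR adjusted p 5.97e-05).

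Col6a2, the neighbour of Col6a1 and its partner in the type VI trimer, was at 47.4, 10.9, 45.9 and 48.7 CPM in control, 3.14, 3.14, 3.47 and 4.94 CPM in H/R and 7.62, 8.52, 7.37 and 8.52 CPM in LITAF libraries. The same control library was low. Col6a2 fell by 3.38 ± 0.35 in H/R. Without that library it fell by 3.68 ± 0.15. Its LITAF value against H/R was 1.12 ± 0.36, without overlap (edgeR adjusted p 0.0839), and 1.13 ± 0.16 in the fit of these groups alone (edgeR adjusted p 0.00245).

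Col6a3, the largest type VI chain, was at 1.63, 2.56, 1.34 and 1.67 CPM in control, 0.479, 0.798, 0.320 and 0.449 CPM in H/R and 2.56, 2.40, 2.53 and 2.65 CPM in LITAF libraries. The H/R libraries held 6 to 14 counts and the LITAF libraries 44 to 47. Col6a3 fell by 1.80 ± 0.29 in H/R and rose by 2.30 ± 0.28 in LITAF against H/R (4.93-fold, edgeR adjusted p 0.000117). Its LITAF level overlapped with control (0.50 ± 0.24, edgeR adjusted p 0.0753, and 0.0393 with library totals). The rise with LITAF passed in all 8 fits with a library left out. Col6a3 was under the level of the low-count filter in H/R and was tested through the groups where it was higher.

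The short-chain network collagens Col8a1, Col8a2 and Col10a1 all fell in H/R, when 31.8% of all genes fell. They did not pass in LITAF against H/R. Col8a1 stood at 112, 88.7, 85.1 and 126 CPM in control, 29.6, 25.1, 23.4 and 31.1 CPM in H/R and 29.3, 24, 26.6 and 25.4 CPM in LITAF libraries. It fell by 1.92 ± 0.14 in H/R (3.77-fold), and the H/R and LITAF libraries covered the same range. Col8a2 stood at 172, 130, 124 and 208 CPM in control, 70.8, 70.8, 62.6 and 79.5 CPM in H/R and 78.2, 111, 89.9 and 93.8 CPM in LITAF libraries. It fell by 1.16 ± 0.16 in H/R, and its LITAF value against H/R was 0.39 ± 0.16. Col10a1, at 6.44 ± 1.69 CPM in control, fell by 1.12 ± 0.22.

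The FACIT collagens sit on the surface of fibrils. Of the 4 tested 1 fell (25%) and 2 rose (50%) in H/R, against 31.8% of all genes in each direction. Col12a1, which links fibrils to their surroundings, stood at 190, 209, 173 and 186 CPM in control, 78.7, 75.2, 82.0 and 82.3 CPM in H/R and 156, 107, 117 and 127 CPM in LITAF libraries. The LITAF libraries lay between the other groups without touching either. Col12a1 fell by 1.25 ± 0.11 in H/R (2.39-fold, edgeR adjusted p 9.35e-08) and rose by 0.67 ± 0.11 in LITAF against H/R (1.59-fold, edgeR adjusted p 0.00246). The rise passed in all 8 fits with a library left out. Col16a1 stood at 57.7 ± 19.8, 61.7 ± 6.76 and 92.9 ± 15.4 CPM and rose in LITAF against control by 0.69 ± 0.19. Its value against H/R, 0.59 ± 0.19, did not pass, though the groups did not overlap (edgeR adjusted p 0.0803). Col14a1 and Col19a1, at 0.224 and 0.303 CPM in control and 0.691 and 0.671 CPM in H/R, rose by 1.58 ± 0.56 and 1.13 ± 0.41, with groups that overlapped. Col14a1 lost this call without control library 3 or 4 (1.44 and 1.46), and Col19a1 without H/R library 1 or 2 or control library 4 (0.99, 1.08 and 0.79) and with DESeq2 (1.13). Both genes were under the level of the low-count filter in control and were tested through the groups where they were higher. The share of FACIT collagens that rose rests on these genes.

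Of the remaining collagens, Col18a1, the source of endostatin, fell in H/R by 1.15 ± 0.20 from 10.3 ± 2.54 CPM. Col7a1, the anchoring fibril collagen, rose by 1.71 ± 0.40 on 3 to 7 counts in control and 10 to 24 counts in H/R libraries. The low-count filter left 19 members untested: Col4a3, Col4a4, Col4a6, Col6a4, Col6a5, Col6a6, Col9a1, Col9a2, Col9a3, Col13a1, Col15a1, Col17a1, Col22a1, Col23a1, Col25a1, Col26a1, Col28a1, Eln and Fbn2. Their highest group mean was 0.590 CPM, for Col17a1 in control, and Col6a6 had no count in any library. Of the 47 tested, 8 were under the level of the low-count filter, about 0.550 CPM, in at least 1 group: Col11a2, Col24a1, Col6a3, Col14a1, Col19a1, Col7a1, Fbln2 and Thbs2. Of these, 4 were under it in control only (Col11a2, Col14a1, Col19a1 and Col7a1) and 3 in H/R only (Col6a3, Fbln2 and Thbs2). Col24a1 was under it in H/R and LITAF. These genes were tested through the groups where they were higher, so their calls are a description only.

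The lysyl oxidases, copper enzymes that start the crosslinks in collagen and elastin, all fell in H/R, 4 of 4, against 31.8% of all genes. Lox stood at 253, 245, 222 and 276 CPM in control, 146, 135, 137 and 130 CPM in H/R and 140, 96.9, 147 and 128 CPM in LITAF libraries. It fell by 0.86 ± 0.12 in H/R (1.82-fold), and H/R and LITAF libraries overlapped. Loxl1, which acts mainly on elastic fibres, stood at 1663, 1837, 1201 and 1797 CPM in control, 349, 328, 293 and 389 CPM in H/R and 322, 391, 336 and 357 CPM in LITAF libraries. Loxl1 fell by 2.26 ± 0.14 in H/R (4.78-fold, edgeR adjusted p 6.84e-10) and stood at 0.05 ± 0.13 in LITAF against H/R.

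Loxl3 stood at 338, 227, 289 and 304 CPM in control, 154, 158, 159 and 162 CPM in H/R and 146, 224, 172 and 197 CPM in LITAF libraries, and fell by 0.87 ± 0.13 in H/R. Loxl4 was at 82.2, 79.5, 72.4 and 88.8 CPM in control, 56.9, 53.7, 49.0 and 59.4 CPM in H/R and 91.3, 67.7, 75.7 and 75.5 CPM in LITAF libraries. Control and LITAF libraries overlapped, and H/R was below both. Loxl4 fell by 0.56 ± 0.11 in H/R and rose by 0.50 ± 0.11 in LITAF against H/R (1.42-fold, edgeR adjusted p 0.0155), a call lost without H/R library 3 (0.45, edgeR adjusted p 0.0729) and kept in the other 7 fits with a library left out. Loxl2, the family member that is not in the chosen set, went the other way. It rose in H/R from 113 ± 16.2 to 213 ± 12.1 CPM (0.92 ± 0.11, edgeR adjusted p 1.78e-06).

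Of the elastic fibre genes 4 of 6 were tested and 2 fell in H/R (50%), when 31.8% of all genes fell. Fbn1, the main protein of microfibrils, stood at 395, 399, 422 and 458 CPM in control, 146, 141, 141 and 131 CPM in H/R and 140, 160, 152 and 152 CPM in LITAF libraries. It fell by 1.58 ± 0.09 in H/R (2.99-fold, edgeR adjusted p 3.51e-10) and stood at 0.11 ± 0.09 in LITAF against H/R. Fbln1, a fibulin that binds fibronectin and basement membranes, fell 11.7-fold in H/R, from 33.1 ± 9.90 to 2.83 ± 0.541 CPM (-3.54 ± 0.21), and was at 2.98 ± 0.105 CPM with LITAF. Fbln5, which brings elastin to microfibrils, was at 238 ± 36.1, 230 ± 4.36 and 280 ± 16.6 CPM. It did not pass in any comparison in the filtered TMM fit of all 12 libraries. In LITAF against H/R it rose in the fit of those groups alone and with the replicate number as a block. Fbln2, at 1.22 ± 1.01, 0.413 ± 0.338 and 0.916 ± 0.315 CPM, did not pass.

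Of the 6 adhesive and matricellular genes 2 fell (33.3%) and 1 rose (16.7%) in H/R. The share that fell was near the 31.8% of all genes that fell, and 31.8% of all genes rose. Thbs1, which binds cells and can activate latent TGF-beta, stood at 12630, 14950, 10640 and 10490 CPM in control, 2856, 2722, 2690 and 2557 CPM in H/R and 3241, 3585, 3844 and 4028 CPM in LITAF libraries. The 3 groups did not overlap. Thbs1 fell by 2.17 ± 0.12 in H/R (4.50-fold, edgeR adjusted p 2.24e-10) and rose by 0.44 ± 0.11 in LITAF against H/R (1.36-fold, edgeR adjusted p 0.0363). The LITAF call was kept without LITAF library 1 and lost in the other 7 fits with a library left out (0.39 to 0.47, edgeR adjusted p 0.0599 to 0.136).

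Fn1, fibronectin, on which collagen fibrils are laid down, stood at 5356, 4997, 5800 and 6746 CPM in control, 5106, 4984, 4971 and 5691 CPM in H/R and 6076, 6197, 5793 and 6308 CPM in LITAF libraries. Control and H/R overlapped, and every LITAF library was above every H/R library. The log2 fold changes were -0.14 ± 0.10 in H/R against control and 0.23 ± 0.10 in LITAF against H/R, and neither passed. Sparc, a collagen-binding protein, was at 2186 ± 338, 2173 ± 95.2 and 2590 ± 266 CPM. It did not pass in any comparison in the filtered TMM fit of all 12 libraries.

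Postn, periostin, a marker of activated fibroblasts, stood at 112, 146, 143 and 44.8 CPM in control, 42.8, 53.3, 46.6 and 16.1 CPM in H/R and 36.5, 53.2, 76.5 and 68.8 CPM in LITAF libraries. Library 4 was the lowest in both the control and the H/R group, so those groups overlapped. Postn fell by 1.49 ± 0.37 in H/R (2.80-fold, edgeR adjusted p 0.00246), with -1.48 ± 0.10 when libraries of the same number were compared as pairs. Its LITAF value against H/R was 0.57 ± 0.36, and it fell in LITAF against control (-0.92 ± 0.36, edgeR adjusted p 0.0365). That fall was lost without LITAF library 1, 2 or 4 or control library 1, 2 or 3 (-1.0 to -0.73, edgeR adjusted p 0.0554 to 0.159). It was also lost with upper quartile scaling, without the low-count filter, with the replicate block and with DESeq2 (-0.93 to -0.81). Thbs2 had 7 to 11 counts in H/R and 13 to 28 in LITAF libraries and rose by 1.2 ± 0.32 (edgeR adjusted p 0.0436). That call was kept without LITAF library 2 and lost in the other 7 fits with a library left out (1.08 to 1.29, edgeR adjusted p 0.0546 to 0.127). It was also lost with library totals (edgeR adjusted p 0.0514), the replicate block (edgeR adjusted p 0.0574) and DESeq2 (adjusted p 0.0548). Tnc, tenascin C, rose in H/R from 1.42 ± 0.456 to 2.29 ± 0.512 CPM (0.69 ± 0.26), with groups that overlapped, and lost this call without H/R library 3 or 4 or control library 1 or 2 (0.54 to 0.68).

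Of the folding and processing members 3 of 4 rose in H/R (75%), when 31.8% of all genes rose. None passed in LITAF against H/R. Serpinh1, the collagen chaperone HSP47 whose promoter window is printed above, stood at 2518, 2601, 3110 and 2578 CPM in control, 4565, 4618, 4659 and 4655 CPM in H/R and 4284, 5243, 4575 and 5021 CPM in LITAF libraries. Every H/R and LITAF library was above every control library. Serpinh1 rose by 0.78 ± 0.10 in H/R (1.71-fold, edgeR adjusted p 2.79e-06) and stood at 0.05 ± 0.09 in LITAF against H/R. Pcolce, which speeds up the removal of the procollagen C-propeptide, rose from 1033 ± 154 to 1402 ± 36.2 CPM (0.44 ± 0.11). P3h1, a prolyl 3-hydroxylase, rose from 66.8 ± 9.74 to 87.8 ± 2.94 CPM (0.39 ± 0.12). Crtap, its partner in the same complex, was at 172 ± 26.0 and 159 ± 4.08 CPM and did not pass (-0.12 ± 0.11).

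Of the TGF-beta ligands 2 of 3 fell in H/R (66.7%), when 31.8% of all genes fell. Tgfb1 stood at 21.4, 21.1, 18.3 and 23.6 CPM in control, 20.8, 20.2, 19.1 and 23.6 CPM in H/R and 19.8, 33.5, 27.4 and 30.9 CPM in LITAF libraries. Control and H/R covered the same range (-0.01 ± 0.15), and 3 of the 4 LITAF libraries were above both. Tgfb1 rose in LITAF against control (0.40 ± 0.14, edgeR adjusted p 0.0228), a call lost without LITAF library 2 or 4 or control library 3 (0.29, 0.35 and 0.36). Its value against H/R, 0.42 ± 0.15, did not pass (edgeR adjusted p 0.112), and was 0.57 without LITAF library 1 (edgeR adjusted p 0.00961). Of the alternative fits, only that one called Tgfb1 in LITAF against H/R.

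Tgfb2 stood at 431, 382, 393 and 396 CPM in control, 201, 194, 204 and 209 CPM in H/R and 216, 152, 183 and 184 CPM in LITAF libraries. It fell by 0.99 ± 0.10 in H/R (1.98-fold) and did not pass in LITAF against H/R (-0.14 ± 0.10). Tgfb3 stood at 798, 678, 848 and 1346 CPM in control, 273, 259, 370 and 440 CPM in H/R and 353, 324, 406 and 326 CPM in LITAF libraries. It fell by 1.45 ± 0.20 in H/R (2.74-fold), with control library 4 the highest of all, and stood at 0.07 ± 0.20 in LITAF against H/R.

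The other genes of the pathway came from lists of 81 genes, of which 73 were in the table and 65 were tested. In H/R against control 20 rose (30.8%) and 32 fell (49.2%), against 31.8% of all genes in each direction. In LITAF against H/R 10 rose (15.4%) and 0 fell, against 3.73% and 1.15% of all genes. The genes that modify and fold collagen chains mostly rose in H/R, 9 up (60%) and 3 down (20%) of 15, with a median of 0.23 against 0.01 for all genes. P4ha1 and P4ha2, catalytic subunits of prolyl 4-hydroxylase, rose from 151 ± 19.0 to 547 ± 14.1 CPM (1.86 ± 0.10) and from 62.2 ± 5.89 to 195 ± 9.15 CPM (1.65 ± 0.10). P4ha3, another catalytic subunit, rose less, from 205.7 ± 13.65 to 238.2 ± 9.42 CPM (0.21 ± 0.09, edgeR adjusted p 0.0484). The partner subunit of all of these, P4hb, rose by 1.18 ± 0.10. Ppib, the cyclophilin of the prolyl 3-hydroxylase complex, rose from 115 ± 14.6 to 347 ± 16.3 CPM (1.59 ± 0.12).

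The lysyl hydroxylases Plod1, Plod2 and Plod3 rose by 0.54 ± 0.16, 0.80 ± 0.11 and 1.09 ± 0.10. Of these, Plod2, which prepares the telopeptide lysines for crosslinks, was at 170 ± 22.9 CPM in control, 296 ± 19.9 CPM in H/R and 296 ± 30.3 CPM in LITAF libraries. P3h4, a scaffold of lysyl hydroxylation, fell from 122 ± 13.8 to 57.2 ± 1.58 CPM (-1.10 ± 0.11), and Colgalt1, which adds galactose to hydroxylysine, fell by 0.79 ± 0.10. None of the 15 passed in LITAF against H/R, where their median was 0.09 against -0.01 for all genes.

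**Figure D4:**
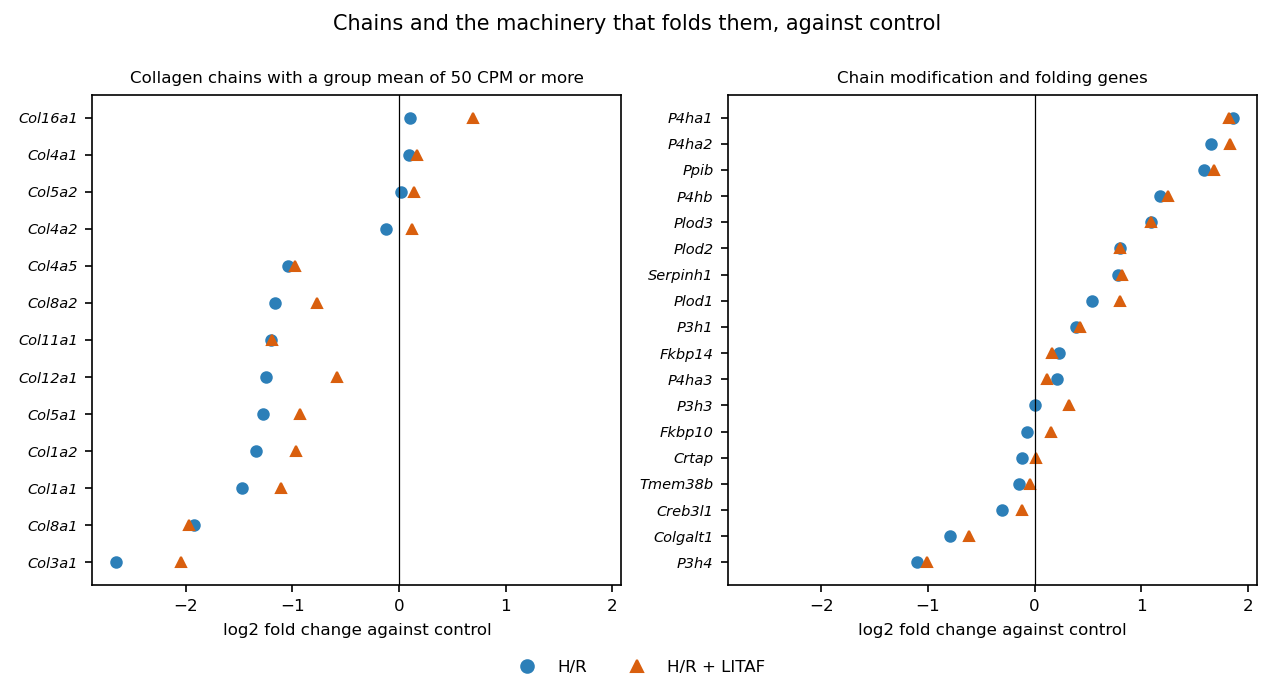
Log2 fold change against control, on the x axis, for collagen chains with a group mean of at least 50 CPM (left) and for genes that modify and fold chains (right), with a circle for H/R and a triangle for LITAF. The chains run from 0.10 (Col16a1) down to -2.65 (Col3a1) in H/R, while P4ha1, P4ha2 and Ppib lie at 1.59 or above; both groups are set against the same control libraries.

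Of the 11 secretion and processing genes tested 2 rose (18.2%) and 5 fell (45.5%) in H/R, against 31.8% of all genes in each direction. The falls included Adamts14 (-2.88 ± 0.26) and Bmp1 (-0.42 ± 0.12), proteases that trim procollagen ends, and the rises were Mia2 (0.98 ± 0.15) and Loxl2. Adamts2, another procollagen N-proteinase, rose in LITAF against H/R (0.55 ± 0.13, edgeR adjusted p 0.0267). Of the 12 elastic fibre and matricellular partners tested 2 rose (16.7%) and 8 fell (66.7%) in H/R, with a median of -0.45. Mfap5, a microfibril protein, rose from 3.26 ± 0.751 to 17.9 ± 0.919 CPM (2.45 ± 0.18). Ccn2, a matricellular protein induced by TGF-beta, fell from 6644 ± 1149 to 2299 ± 91.3 CPM (-1.53 ± 0.14). With LITAF 5 of these partners rose against H/R (41.7%), when 3.73% of all genes rose. Ccn1 rose from 292 ± 7.30 to 884 ± 92.5 CPM (1.60 ± 0.10, edgeR adjusted p 9.96e-08), and Tgfbi from 173 ± 13 to 309 ± 54.0 CPM (0.84 ± 0.14, edgeR adjusted p 0.00161).

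Receptors for collagen and fibronectin were lower in H/R, with 8 of 10 down (80%) and 1 up (10%) and a median of -0.67. Of all genes 31.8% went each way. Itga8, a fibronectin receptor chain, fell from 779 ± 140 to 78.3 ± 6.87 CPM (-3.32 ± 0.16, edgeR adjusted p 7.26e-11). Itga1, Itga5 and Itgb1 fell by 1.40 ± 0.20, 0.80 ± 0.11 and 0.39 ± 0.09. Ddr2, a receptor kinase for fibrillar collagen, rose by 0.60 ± 0.14. Of 17 TGF-beta signalling genes tested, 6 rose (35.3%) and 8 fell (47.1%) in H/R, and the share that rose was near the 31.8% of all genes. The receptor Tgfbr2 fell from 112 ± 20.3 to 54.5 ± 5.87 CPM (-1.04 ± 0.13). Among the inhibitors of the pathway, Smad7 rose by 0.62 ± 0.11, and Smad6 fell by 1.57 ± 0.25.

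With LITAF 3 of these signalling genes rose against H/R (17.6%), when 3.73% of all genes rose. Pmepa1, an induced inhibitor of the pathway, rose from 141 ± 19.6 to 233 ± 35.2 CPM (0.72 ± 0.16, edgeR adjusted p 0.0145), and Ski, a repressor of SMAD targets, by 0.44 ± 0.10.

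Chains that assemble into the same molecule were compared as log2 ratios within each library, which do not depend on the scaling. With 4 libraries against 4 the exact permutation test cannot give a p below 0.0286, and over the 12 ratios tested none passed after adjustment (lowest adjusted p 0.0571). The Col5a1 to Col5a2 ratio was -0.93, -0.35, -0.69 and -1.11 in control, -1.97, -2.06, -2.18 and -2.07 in H/R and -1.98, -1.74, -1.84 and -1.83 in LITAF libraries. H/R minus control was -1.30, without overlap (two-sided exact permutation p 0.0286, adjusted 0.0571). Taken as pairs of the same number, 4 pairs cannot give an exact sign-flip p below 0.125. In H/R against control this ratio and those of Col6a1 to Col6a2 and Col1a1 to Col1a2 each gave that value. The Col6a1 to Col6a2 ratio was -0.33 ± 0.24 in control, -1.11 ± 0.39 in H/R and -0.48 ± 0.20 in LITAF libraries. H/R minus control was -0.78 and LITAF minus H/R was 0.62, each with an exact permutation p of 0.0286 (adjusted 0.0571).

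The Col4a1 to Col4a2 ratio was 0.65 ± 0.03 in H/R and 0.48 ± 0.02 in LITAF libraries, without overlap (difference -0.17, exact permutation p 0.0286, adjusted 0.0571). In control it was 0.22, 0.19, 0.69 and 0.66, with libraries 1 and 2 low. The Col1a1 to Col1a2 ratio was 0.33 ± 0.07, 0.21 ± 0.05 and 0.19 ± 0.02 in control, H/R and LITAF libraries. H/R minus control was -0.13 (exact permutation p 0.0571, adjusted 0.0857) and LITAF minus H/R was -0.01 (exact permutation p 0.771). LITAF minus control was -0.14, without overlap (exact permutation p 0.0286, adjusted 0.0571).

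**Figure D5:**
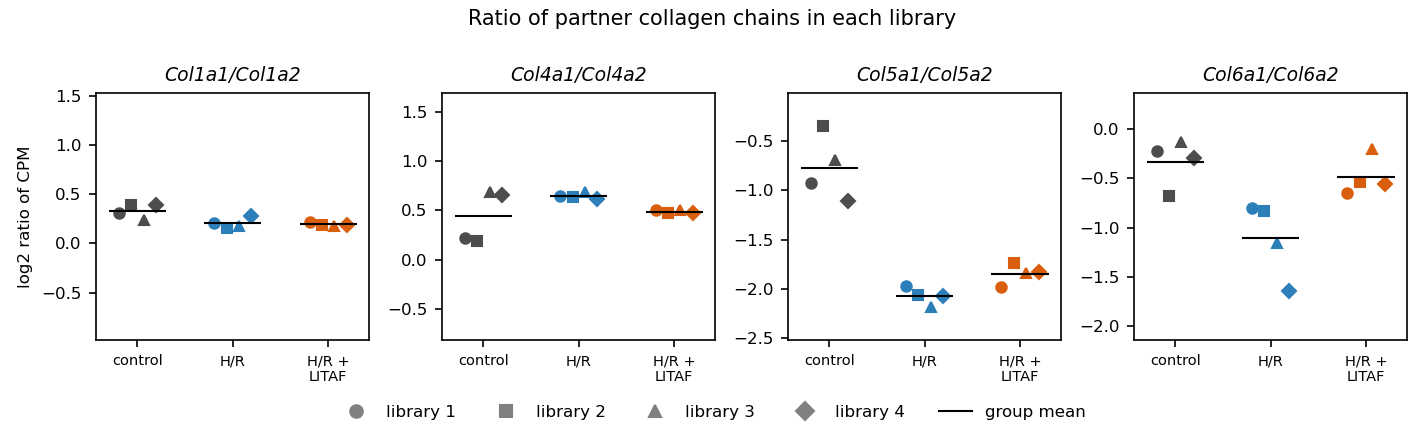
Log2 ratio of CPM of partner collagen chains in each library, on y axes of equal span, with a marker shape per library number and a line at the group mean. Col5a1/Col5a2 drops from a mean of -0.77 in control to -2.07 in H/R. Col1a1/Col1a2 lies between 0.16 and 0.39 in all 12 libraries, with means of 0.33 in control, 0.21 in H/R and 0.19 in LITAF.

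Markers of cell types that the culture could hold moved between the groups as well. Summed skeletal muscle markers (7 of 7 genes in the table) ran from 1628 to 5953 CPM in control, 115 to 134 CPM in H/R and 154 to 186 CPM in LITAF libraries. Myog made up most of the control sum, at 3870 CPM, and fell to 14.1 CPM in H/R, while Des in the same list rose from 3.69 to 13.0 CPM (1.81 ± 0.14, edgeR adjusted p 1.63e-08). Summed smooth muscle markers (4 of 4) ran from 3817 to 4803, 6218 to 6644 and 5085 to 7880 CPM in the same order. Acta2, at 3359 CPM in control and 5033 CPM in H/R, made up most of this sum, and Myh11 fell from 30.2 to 8.21 CPM (-1.88 ± 0.18, edgeR adjusted p 2.07e-07). Cardiomyocyte markers (7 of 7) summed to 177 to 410, 63.3 to 92.9 and 148 to 205 CPM, and Tnnt2 made up most of the sum. Nkx2-5 in the same list rose in H/R from 6.84 to 16.5 CPM (1.27 ± 0.17, edgeR adjusted p 8.27e-06). Myh6, Nppa, Tnni3, Actn2 and Ryr2 were each under 1 CPM on average in every group. Among fibroblast markers that are not members, 6 were in the table. Dcn and Dpt were at 0 in every library and Thy1 made up nearly all of the sum, 229 to 267, 207 to 235 and 192 to 255 CPM. Endothelial and leukocyte markers summed to at most 0.612 and 1.67 CPM in any library, and the 3 epithelial markers to 28.0 to 40.4, 29.3 to 40.0 and 39.9 to 76.0 CPM. The part of these markers in the matrix results was not tested.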

How the data were processed

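The authors deposited 1 table of estimated counts per gene, raw and not normalized per the file headers. They are read as estimated because some values were decimals (2.85 to 3.4% in control columns and 11.4 to 12.6% in the others), and were rounded. Whether control columns were made like the others is not known. DESeq2 and edgeR are named in the submitters' processing notes without version or role. The aligner, quantifier, build, annotation and strand setting were not given in the sources used here. Of 16204 gene rows, 258 shared an ID; 72 IDs with differing rows were left out, and none of them was a member.

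Counts were filtered with filterByExpr, scaled by TMM and tested in 1 fit of all 12 libraries with edgeR's quasi-likelihood F-test (edgeR 4.0.16, limma 3.58.1, R 4.3.3), robust and two-sided, with Benjamini-Hochberg adjustment over 11398 genes and a threshold of 0.05. SE came from the size of the log2 fold change and F. The script was tested on simulated data. Chain ratios used log2 CPM with a prior count of 2 and an exact permutation test. Groups and replicate numbers came from the sample titles. Depth limits the precision of genes with few counts, and the spread between libraries that of the rest.

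Same-numbered control and H/R libraries deviated together from their group means (correlations of 0.302 to 0.568, against -0.269 to -0.0293 for other numbers), so the numbers were taken to pair them. The fits and ratio tests given as results have no block; the blocked fit is an alternative, under which every H/R against control member call that could be tested was kept. LITAF libraries did not meet this rule with H/R (0.0543 to 0.197) or control (0.0487 to 0.100).

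The members, gene lists and tests were chosen with earlier results of these data known. Values per library were given for the 16 members with at least 50 CPM in a group, a call and the largest log2 fold change, for partner chains, and for Tgfb1, Tgfb2, Tgfb3, Serpinh1, Lox and Fn1. Of the pathway lists, the 4 rises and 4 falls with the smallest p in H/R, up to 4 in LITAF, and P4ha1, P4ha2, Plod2 and Loxl2 were named. A signalling gene that this rule names is not reported here. Other members were described by role, and Col6a1, Col6a2, Col6a3 and Loxl4 were given per library, and further pathway genes named, after their values were seen. Alternatives were other scalings, no filter, DESeq2 1.42.0, each comparison's groups alone, a replicate block, a stricter threshold and each library left out.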

Additional observations from a re-analysis of the deposited data

Results flagged for a closer look

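Each of the 47 tested members was examined in each group for a library far from the others. In these 141 groups of 4 libraries 10 stood out by Dixon's test at 95% (7.09%), a rule by which chance marks about 1 group in 20. Control library 2 was low in Col6a1, at 6.78 CPM with the others between 39.8 and 41.8 CPM, and in Col6a2, at 10.89 CPM with the others between 45.9 and 48.7 CPM. The same library was high in Crtap, at 210.8 CPM. Col5a1 in control library 2 was at 1309 CPM, with the other control libraries between 955 and 1002 CPM. Without that library Col5a1 fell in H/R by 1.16 ± 0.10 on the log2 scale. Serpinh1 in control library 3 was at 3110 CPM, with the others between 2518 and 2601 CPM. Control library 1 was high in Col16a1, at 86.96 CPM, and low in Pcolce, at 801.3 CPM. H/R library 1 was low in Col14a1, at 0.2662 CPM. LITAF library 1 was high in Col27a1, at 12.16 CPM, and LITAF library 2 in Fbln5, at 305.2 CPM.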

How the results depend on the processing

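The number of members called in H/R against control ran from 30 to 35 and in LITAF against control from 29 to 40 under the alternatives run. The number of all genes called, 7248 and 7366 in these comparisons, ran from 5976 to 8032 and from 6094 to 7604. In LITAF against H/R the 8 members became 15 with these groups alone and 2 with an adjusted p under 0.01, and ran from 2 to 11 with a library left out. The 556 genes called of all genes became 1098 with these groups alone, 877 with DESeq2 and 182 with an adjusted p under 0.01, and ran from 244 to 1285 with a library left out. With the replicate number as a block, LITAF against H/R gave 11 members and 887 genes. In the same setting H/R against control gave 31 members and 8032 genes, Col14a1 and Col19a1 not being tested in that fit. Of the chain ratios, Col6a1 to Col6a2 in H/R against control was -0.51 with log2 of CPM + 1 (exact permutation p 0.0857). The replicate number as a block was an alternative chosen after seeing the data. With it, H/R against control was -1.30 for Col5a1 to Col5a2, -0.78 for Col6a1 to Col6a2 and -0.13 for Col1a1 to Col1a2. Each had a p of 0.125 in an exact sign-flip test, the smallest that 4 pairs allow. Col4a1 to Col4a2 was at 0.21 with p 0.5 in the same test. With a library left out, Col6a1 to Col6a2 ran from -0.89 to -0.60 in H/R against control. In LITAF against H/R the ranges were 0.45 to 0.73 for Col6a1 to Col6a2, 0.19 to 0.27 for Col5a1 to Col5a2 and -0.03 to 0.01 for Col1a1 to Col1a2. In LITAF against control they were -0.17 to -0.12 for Col1a1 to Col1a2 and -0.04 to 0.13 for Col4a1 to Col4a2, the latter at -0.03 without control library 1 and -0.04 without control library 2. The causes were not tested. Counts under about 10 per library limit the lowest members.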
